A study of Mus musculus with 8 samples.

Results

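The genes described here are 31 genes of the unfolded protein response and the integrated stress response in mouse pro-B cells. They were chosen by symbol: each row of the deposited count table whose identifier, with its version removed, carries the symbol in the mouse annotation was taken. All 31 were found among the 55487 genes of the table. Of these, 30 held enough reads to be tested, among 18884 genes tested in all. The gene left out was Chac1.

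The series holds 8 RNA sequencing libraries of cells labelled as pro-B cells, the stage of B cell development at which the immunoglobulin heavy chain locus is rearranged. There were 4 libraries labelled CD25_KO (numbered KO1 to KO4 here) and 4 labelled WT (WT1 to WT4). CD25, encoded by Il2ra, is the alpha chain of the interleukin 2 receptor, and the comparison asks how its loss alters gene expression. The labels name no strain, age, sex, treatment, deletion design or Cre driver, and nothing in them ties the libraries of a group to different animals. The p-values therefore rest on the spread between these 8 libraries, part of which may be technical.

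Proteins that enter the endoplasmic reticulum (ER) are folded there by chaperones such as BiP and by protein disulfide isomerases. When folding falls behind, the membrane sensors IRE1, PERK and ATF6 signal to the nucleus through spliced XBP1, ATF4 and cleaved ATF6, which raise chaperones, enzymes of oxidative folding and the machinery of ER-associated degradation (ERAD). PERK acts by phosphorylating eIF2 alpha, a step shared with other kinases and called the integrated stress response. In the B lineage the pathway is best known for the role of XBP1 in antibody-secreting plasma cells. Counts per gene read neither XBP1 splicing nor protein phosphorylation or cleavage.

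Several facts of the libraries bear on every result. Il2ra, the gene named in the knockout label, stood at 193 ± 35.9 against 181 ± 43.1 CPM (counts scaled to library size), wild type first (SD, n = 4 each). The log2 fold change was -0.09 (95% interval -0.51 to 0.32), so the label is not supported by a lower total count of Il2ra, and the group is called the labelled knockout throughout. The sources used here do not name the deleted exons, so a total over all exons cannot settle the label. Library totals ran from 43974037 to 57988772 counts. WT2 held both Y-linked RNA (483 CPM over the genes summed) and Xist (60.0 CPM), KO2 and KO4 held Y-linked RNA with Xist at 1.12 CPM or less, and the other 5 libraries held Y-linked sums of 2.79 CPM or less. Summed markers of the B lineage lay between 8673 and 10351 CPM in all 8 libraries. Erythroid markers summed to between 2971 and 8734 CPM in the wild type, with WT4 highest, and to between 319 and 2339 CPM in the labelled knockout, so the groups did not overlap. Summed markers of natural killer and T cells did not overlap either (32.9 to 50.5 against 9.36 to 29.5 CPM), and monocyte and neutrophil sums did. Of the 9 tested natural killer and T cell genes 7 had a lower value, and 1 had groups that did not overlap (4.17% of all genes). The T cell genes Cd3d and Cd4 had higher values (log2 fold change 0.34 and 0.67) with overlapping groups. Cd3e and Cd8a were too rare to be tested. In bulk libraries, fewer cells of a type and less RNA per cell cannot be told apart.

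The promoters of these genes are shown first, because short elements in them define the pathway in textbooks. The ER stress response element is CCAAT, then 9 bases of any kind, then CCACG. RefSeq promoter windows (GRCm38.p6, 250 bases before to 50 after the start of the gene) were present for 28 of the 31 genes, and both strands were searched. The element was found in 9 of these 28 windows (32.1%) and in 39 of all 32851 windows (0.119%). The 9 genes were Hspa5, Hsp90b1, Dnajc3, Calr, Canx, Creld2, Pdia6, Syvn1 and Derl3. Below, 8 matches are printed with 20 bases on either side, in lower case with CCAAT and CCACG in capitals. They are 1 match from each of the 9 genes except Hspa5, and all lie upstream of every annotated start of their gene. Hspa5 was left out because an annotated start of that gene lies upstream of its match. A second match of Hsp90b1 that is also upstream (chr10:86705513-86705571, plus strand) is not printed.
Hsp90b1, chr10:86705618-86705676, minus strand: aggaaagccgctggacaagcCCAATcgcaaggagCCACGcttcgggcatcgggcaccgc
Calr, chr8:84847055-84847113, plus strand: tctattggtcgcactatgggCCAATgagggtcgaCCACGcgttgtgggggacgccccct
Canx, chr11:50325780-50325838, minus strand: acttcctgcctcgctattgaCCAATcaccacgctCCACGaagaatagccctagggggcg
Pdia6, chr12:17266471-17266529, plus strand: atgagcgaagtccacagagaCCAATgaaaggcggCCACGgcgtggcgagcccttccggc
Dnajc3, chr14:118937807-118937865, plus strand: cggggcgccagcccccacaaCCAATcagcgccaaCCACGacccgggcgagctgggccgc
Creld2, chr15:88819500-88819558, minus strand: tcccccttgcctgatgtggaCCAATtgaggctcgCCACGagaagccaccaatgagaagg
Syvn1, chr19:6046512-6046570, plus strand: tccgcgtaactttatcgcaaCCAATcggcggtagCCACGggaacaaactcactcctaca
Derl3, chr10:75893222-75893280, minus strand: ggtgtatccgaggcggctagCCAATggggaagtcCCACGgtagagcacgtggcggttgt

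Form II of the element is ATTGG, then 1 base, then CCACG. It was found in the windows of Herpud1 and Dnajb11, 7.14% of the 28, against 12 windows (0.0365%) of all. The core bound by C/EBP and ATF factors, which include ATF4 and CHOP, is TGATG, then 1 base, then AA. It was found in Herpud1, Trib3, Asns and Chac1, 14.3% of the windows against 3.97% of all. The letters TGACGTGG, a core read by XBP1 and ATF6, were in 0 of the 28 windows and in 0.676% of all. The 5 bases CCACG alone were in 23 of the 28 windows (82.1%) and in 32.8% of all, and they overlap the longer elements. A match describes letters and is no evidence of a bound site. Herpud1, whose difference between the groups is described below, held both of the following matches, and Chac1 is shown beside it for the same core, with the matched letters in capitals.
Herpud1, form II, chr8:94386357-94386407, plus strand: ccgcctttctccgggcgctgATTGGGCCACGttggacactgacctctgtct
Herpud1, core, chr8:94386297-94386344, minus strand: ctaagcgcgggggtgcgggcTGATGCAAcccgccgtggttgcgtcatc
Chac1, core, chr2:119351029-119351076, minus strand: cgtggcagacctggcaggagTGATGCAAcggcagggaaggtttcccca

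Levels between genes were compared per kilobase of exon. In the wild type the most abundant member was Hsp90b1, which encodes the ER HSP90 called GRP94, at 266 ± 15.9 CPM per kb (SD, n = 4). Herpud1, an ERAD scaffold, followed at 207 ± 85.6, and Hspa5, which encodes BiP, at 146 ± 19.0 CPM per kb. The wild-type range of Herpud1 (113 to 321 CPM per kb) enclosed those of both neighbours in the order. Calr (113 ± 17.8) and Pdia4 (108 ± 9.45 CPM per kb) also overlapped each other. At the other end stood Asns (0.857 ± 0.374), Ern1 (0.547 ± 0.0929) and Chac1 (0.142 ± 0.107 CPM per kb). In the labelled knockout Herpud1 came first at 365 ± 60.3 and Hsp90b1 next at 244 ± 12.6 CPM per kb. Trib3, Asns, Ern1 and Chac1 were the 4 least abundant members in both groups.

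No member passed the test between the groups. Of 18884 genes 0 were called (0%; edgeR quasi-likelihood test, Benjamini-Hochberg adjusted p under 0.05), and the smallest adjusted p of any member was 0.391. An unadjusted p under 0.05 was found for 2388 genes, DESeq2 called 6 genes and limma called 0, and neither called a member. Of the 30 members 21 had a higher value in the labelled knockout (70%, against 50.4% of all genes tested). Their median log2 fold change was 0.28, against 0.0033 over all genes. At an unadjusted p under 0.05, 6 of 30 members were on the higher side, where 5.53% of all genes were, and 1 member was on the lower side, where 7.11% of all genes were. The 6 were Dnajb11, Herpud1, Edem2, Ern1, Eif2ak3 and Ppp1r15a, and the 1 was Asns. Groups that did not overlap were found in 2 members on the higher side (2.62% of all genes) and 1 on the lower side (4.17% of all genes). The 95% interval of the fold change lay within 2-fold in either direction for 17 of the 30 members. For the other 13 a difference of 2-fold or more was not bounded by these 8 libraries.

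**Figure D1:**
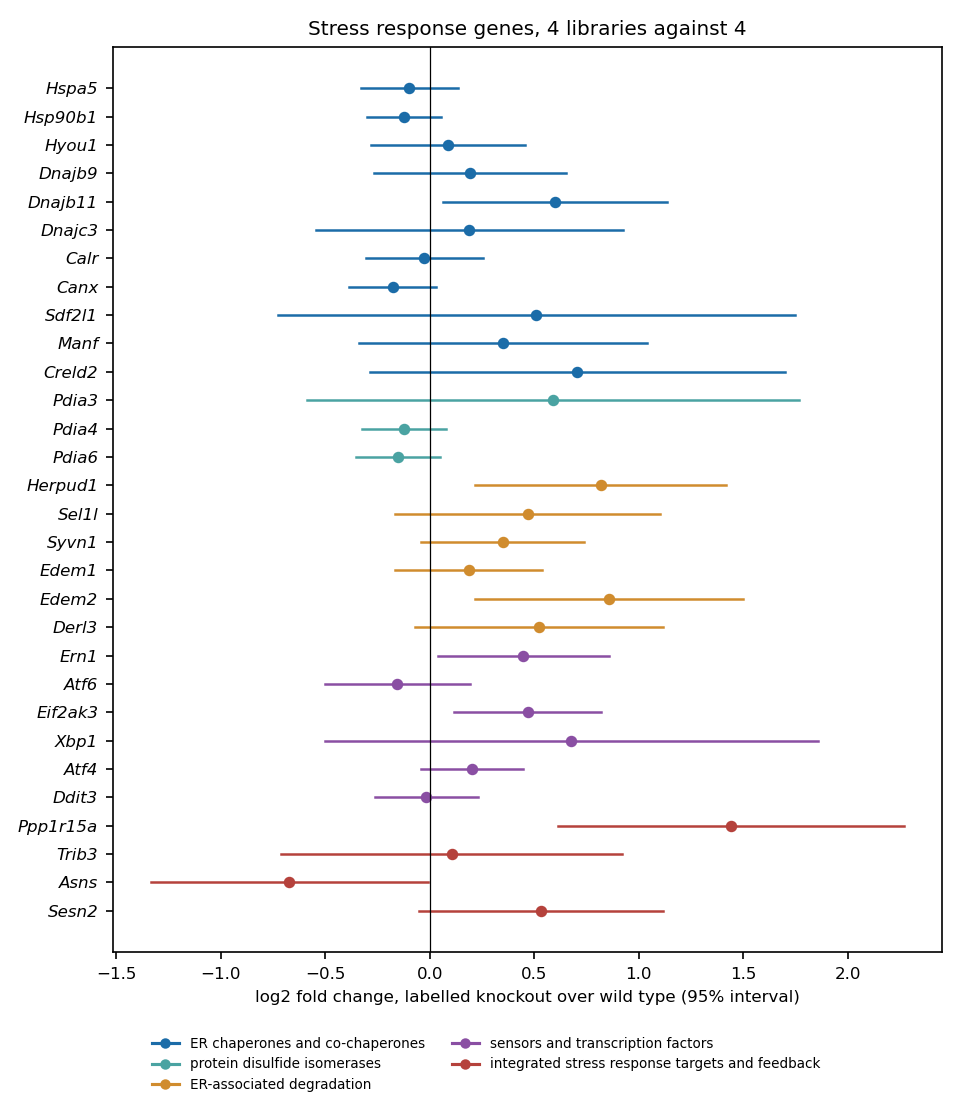
Log2 fold change of each of the 30 tested genes, labelled knockout over wild type, with its 95% interval (4 libraries in each group), coloured by role. The chaperones Hspa5, Hsp90b1, Calr and Canx lie near 0 with narrow intervals, all 6 ERAD genes lie above 0, and Xbp1, Pdia3 and Sdf2l1 have the wide intervals.

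Among the 11 chaperones and co-chaperones 7 values were higher and 4 lower, with a median log2 fold change of 0.19. Hspa5 (ENSMUSG00000026864.13, chromosome 2, 34771970 to 34777547, plus strand) encodes BiP, the Hsp70 that holds the sensors inactive and is the classical read-out of ER stress. It stood at 655, 502, 686 and 620 CPM in WT1 to WT4 and at 591, 545, 582 and 585 CPM in KO1 to KO4. The 4 labelled knockout values fell inside the wild-type range. The log2 fold change was -0.10 ± 0.10 (SE), with an interval of -0.33 to 0.14 (adjusted p = 0.692). A rise of Hspa5 beyond 0.14 on the log2 scale thus lay outside its interval.

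Hsp90b1 was similarly even, between 998 and 1144 CPM in the wild type and between 942 and 1048 CPM in the labelled knockout (log2 fold change -0.12, interval -0.30 to 0.06). Canx and Calr encode calnexin and calreticulin, lectin chaperones that bind glycoproteins carrying a trimmed glucose. Canx was at 411, 342, 352 and 368 CPM in WT1 to WT4 and at 325, 333, 295 and 349 CPM in KO1 to KO4. The groups overlapped only in that KO4 exceeded WT2 (log2 fold change -0.18, interval -0.38 to 0.03, adjusted p = 0.434). Calr had 325 ± 51.4 against 319 ± 29.0 CPM (SD, n = 4 each). Hyou1, a nucleotide exchange factor for BiP, had 30.0 ± 2.67 against 31.9 ± 7.13 CPM. Exons of Hsp90b1 overlap those of 3 other genes, with 2 of the 3 on the same strand, and reads there cannot be assigned to a gene. The overlap was 2076 bases summed over pairs of exons, so a base in several transcripts may be counted more than once.

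The J-domain co-chaperones, which deliver clients to BiP and start its ATP cycle, were less even. Dnajb11 (ERdj3) was at 129, 71.0, 128 and 186 CPM in WT1 to WT4 and at 219, 169, 191 and 201 CPM in KO1 to KO4. Only WT4 reached into the range of the labelled knockout. This corresponded to a log2 fold change of 0.60 ± 0.24 (SE; adjusted p = 0.391). Dnajc3 (P58IPK), which also restrains PERK, was at 70.7 CPM in WT4 and 71.7 CPM in KO1 and between 25.6 and 47.3 CPM in the other 6 libraries. Its log2 fold change of 0.19 was -0.08 without KO1 and 0.57 without WT4. Dnajb9 (ERdj4), which keeps BiP on IRE1, had 15.3 ± 3.69 against 17.5 ± 2.87 CPM.

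Creld2, Sdf2l1 and Manf encode small ER-stress-inducible proteins, of which SDF2L1 works with ERdj3 and MANF can be secreted. Creld2 was at 10.7, 6.10, 12.1 and 25.3 CPM in WT1 to WT4 and at 37.6, 12.5, 17.0 and 21.3 CPM in KO1 to KO4. WT2 was lowest, KO1 highest and WT4 next to it, so the groups overlapped (log2 fold change 0.71 ± 0.44 SE, adjusted p = 0.499). Sdf2l1 ran from 4.88 CPM in WT2 to 41.8 in WT4 and 43.7 CPM in KO1. Manf ran from 29.3 CPM in WT2 to 96.0 in WT4 and 92.4 CPM in KO1. In both genes the labelled knockout libraries other than KO1 lay between these ends. The log2 fold change of Creld2 was 0.32 without KO1 and 1.201 without WT4, and that of Sdf2l1 (0.51) was 0.18 and 1.26.

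The 3 protein disulfide isomerases, which form and rearrange disulfide bonds, split in the same manner. Pdia4 (ERp72) was at 274, 248, 282 and 233 CPM in WT1 to WT4 and at 252, 226, 241 and 234 CPM in KO1 to KO4. Pdia6 (P5) was at 324, 316, 367 and 312 CPM and at 322, 280, 281 and 304 CPM. Both had overlapping groups, with log2 fold changes of -0.12 (adjusted p = 0.566) and -0.15 (adjusted p = 0.482). Pdia3 (ERp57), the partner of calnexin and calreticulin, was at 96.8, 38.3, 93.8 and 286 CPM in WT1 to WT4 and at 305, 119, 156 and 197 CPM in KO1 to KO4. WT4 and KO1 stood well above the other 6 libraries, and the log2 fold change was 0.59 ± 0.53 (SE; interval -0.59 to 1.77, adjusted p = 0.630). Without KO1 it was 0.28, and without WT4 it was 1.35 (adjusted p = 0.0716). The 3 isomerases of oxidative folding thus had no common pattern across the libraries.

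All 6 ERAD members had a higher value in the labelled knockout (median log2 fold change 0.49), and none passed the test. ERAD carries misfolded proteins back to the cytosol for the proteasome. Herpud1 (ENSMUSG00000031770.16, chromosome 8, 94386438 to 94395377, plus strand) encodes a membrane scaffold that assembles the HRD1 complex. It was at 458, 263, 462 and 748 CPM in WT1 to WT4 and at 977, 657, 929 and 844 CPM in KO1 to KO4. WT4 alone exceeded a labelled knockout library, KO2. The mean was 483 ± 200 against 852 ± 141 CPM (SD, n = 4 each), a log2 fold change of 0.82 ± 0.27 (SE; adjusted p = 0.391).

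Edem2 (ENSMUSG00000038312.10, chromosome 2, 155701677 to 155729475, minus strand) encodes the protein that starts mannose trimming of glycoproteins bound for degradation. It was at 32.6, 17.3, 29.4 and 51.4 CPM in WT1 to WT4 and at 70.0, 47.6, 66.3 and 52.8 CPM in KO1 to KO4. As in Herpud1, WT4 exceeded KO2 and no other labelled knockout library (log2 fold change 0.86 ± 0.29 SE, adjusted p = 0.391). Edem1, a relative with the same substrates, had 40.7 ± 5.37 against 46.3 ± 8.53 CPM.

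Syvn1 encodes HRD1, the ubiquitin ligase of the complex, and Sel1l its adaptor. Syvn1 was at 322, 214, 312 and 248 CPM in WT1 to WT4 and at 304, 322, 460 and 307 CPM in KO1 to KO4, and KO3 stood apart from the other labelled knockout libraries. This gave a log2 fold change of 0.35 (interval -0.04 to 0.74, adjusted p = 0.416), and 0.19 without KO3. Its exons overlap those of Mrpl49 on the opposite strand, by 535 bases summed over pairs of exons. Sel1l had 54.0 ± 20.4 against 74.8 ± 21.05 CPM, and Derl3, a derlin of the channel, had 13.8 ± 4.22 against 19.8 ± 5.24 CPM (SD, n = 4 each). WT2 was the lowest of all 8 libraries in each of the 6 ERAD genes.

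**Figure D2:**
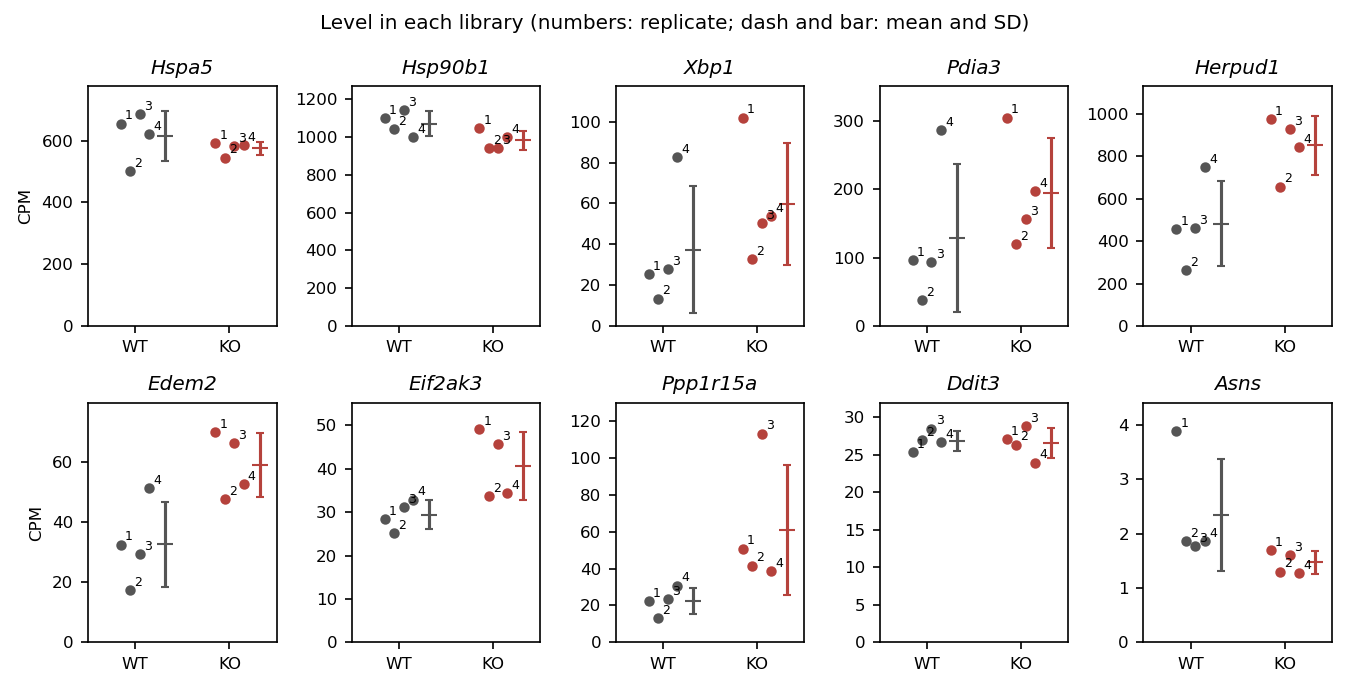
Scaled CPM of 10 genes in each library (points numbered by replicate) with the mean and SD of each group beside them, on axes that start at 0. Hspa5, Hsp90b1 and Ddit3 are level across libraries, and Xbp1 and Pdia3 are high in WT4 and KO1. The groups do not overlap in Ppp1r15a and Eif2ak3, higher in the labelled knockout, and in Asns, lower in it.

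Among the 6 sensors and transcription factors 4 values were higher and 2 lower. Eif2ak3 (ENSMUSG00000031668.14, chromosome 6, 70844515 to 70905245, plus strand) encodes the kinase PERK. It was at 28.3, 25.2, 31.2 and 32.9 CPM in WT1 to WT4 and at 49.0, 33.7, 45.6 and 34.4 CPM in KO1 to KO4. Each labelled knockout library was above each wild-type library, though KO2 and KO4 exceeded WT4 by less than 2 CPM. The log2 fold change was 0.47 ± 0.16 (SE; interval 0.12 to 0.82, adjusted p = 0.391). Exons of the antisense gene Gm43292 overlap those of Eif2ak3, by 970 bases summed over pairs of exons, and reads there cannot be assigned to a gene.

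Ern1, which encodes the sensor IRE1 alpha, was rare. It was at 5.56, 3.86, 4.42 and 4.05 CPM in WT1 to WT4 and at 6.54, 5.35, 7.03 and 5.44 CPM in KO1 to KO4. Only WT1 overlapped the labelled knockout (log2 fold change 0.45 ± 0.18 SE, adjusted p = 0.391). Atf6, the third sensor, had 162 ± 32.5 against 145 ± 18.4 CPM (SD, n = 4 each).

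Xbp1 (ENSMUSG00000020484.19, chromosome 11, 5520659 to 5525893, plus strand) encodes the factor that IRE1 activates by splicing its transcript. It was at 25.3, 13.4, 28.0 and 82.8 CPM in WT1 to WT4 and at 102, 32.7, 50.4 and 53.9 CPM in KO1 to KO4. WT4 was higher than 3 of the 4 labelled knockout libraries, and KO1 was the highest of all. Its log2 fold change of 0.68 ± 0.53 (SE) had an interval of -0.50 to 1.86 (adjusted p = 0.583). It was 0.28 without KO1 and 1.43 without WT4. The difference between libraries of the same group was therefore larger than that between the groups.

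Atf4, the factor translated when eIF2 alpha is phosphorylated, was at 201, 157, 201 and 220 CPM in WT1 to WT4 and at 216, 227, 234 and 219 CPM in KO1 to KO4. WT2 stood lowest and the other 7 libraries lay within 201 to 234 CPM (log2 fold change 0.20, interval -0.04 to 0.45, adjusted p = 0.449). Ddit3, which encodes the pro-apoptotic factor CHOP, was at 25.3, 26.9, 28.5 and 26.7 CPM and at 27.1, 26.4, 28.8 and 24.0 CPM. No library departed from the others, and the log2 fold change was -0.02 (interval -0.26 to 0.23, adjusted p = 0.961). Exons of Gm4189 and Mars, and of a second Ddit3 row without counts, overlap those of Ddit3, by 547 bases summed over pairs of exons.

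The 4 tested targets and feedback genes of the integrated stress response went in different directions. Ppp1r15a (ENSMUSG00000040435.12, chromosome 7, 45522916 to 45526268, minus strand) encodes GADD34, which brings a phosphatase to eIF2 alpha and ends the response. It was at 22.5, 13.4, 23.3 and 30.7 CPM in WT1 to WT4 and at 50.8, 41.6, 113 and 38.6 CPM in KO1 to KO4. The groups did not overlap, and KO3 was more than 2-fold above any other library. The log2 fold change was 1.44 ± 0.37 (SE; interval 0.61 to 2.27), the largest of the members, with an adjusted p of 0.391. Without KO3 it was 0.96, and without WT4 it was 1.63.

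Asns encodes asparagine synthetase, a classical ATF4 target. It was at 3.88, 1.87, 1.76 and 1.86 CPM in WT1 to WT4 and at 1.69, 1.30, 1.60 and 1.28 CPM in KO1 to KO4. The groups did not overlap, but WT1 stood far above the other wild-type libraries. Its log2 fold change was -0.67 ± 0.30 (SE; adjusted p = 0.393), and -0.32 without WT1.

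Sesn2, a stress-inducible inhibitor of mTORC1 signalling, was at 6.03, 2.79, 5.33 and 6.97 CPM in WT1 to WT4 and at 7.61, 7.86, 8.50 and 6.58 CPM in KO1 to KO4. WT4 exceeded KO4 only (log2 fold change 0.53 ± 0.26 SE, adjusted p = 0.408). Trib3, a pseudokinase that feeds back on ATF4, was at 0.723 CPM in WT2 and between 2.24 and 2.80 CPM in the other 7 libraries. Chac1, a glutathione-degrading enzyme induced through ATF4 and CHOP, had 2 to 26 counts per library and was not tested.

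**Figure D3:**
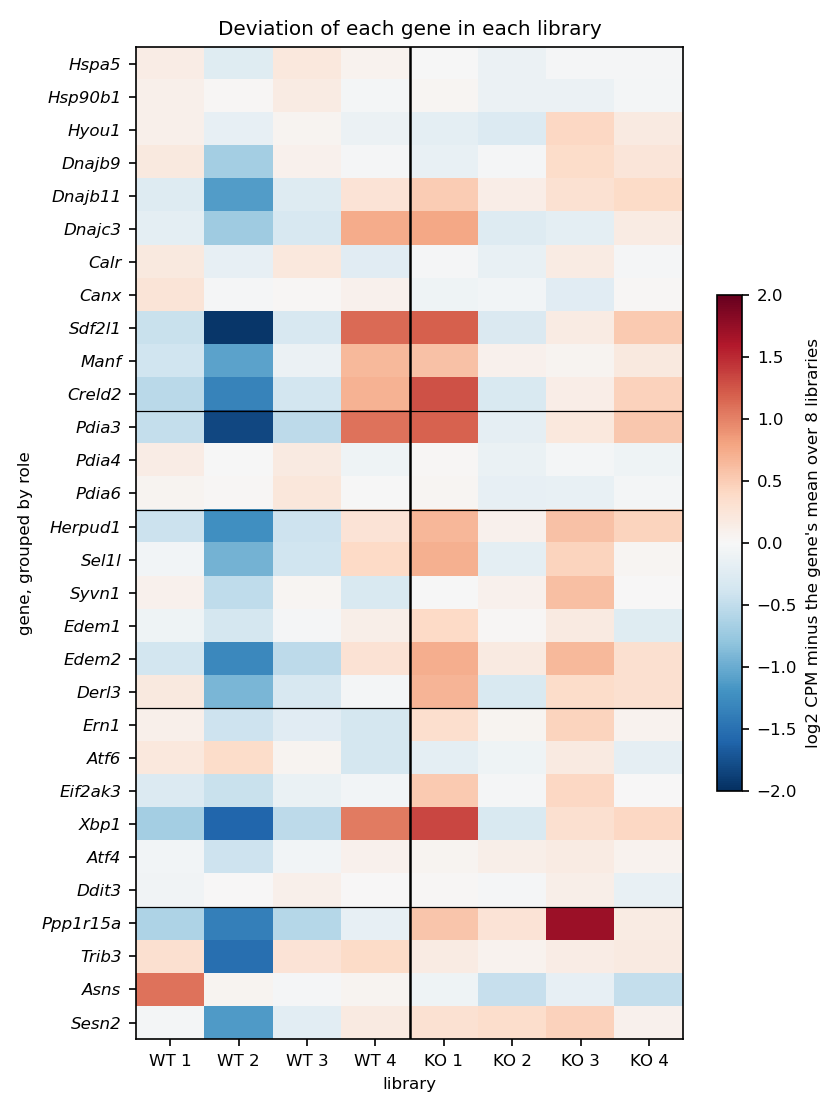
Deviation of each tested gene in each library, as log2 CPM minus the mean of that gene over the 8 libraries (colour scale from -2 to 2), with lines between the roles and between the groups. WT2 is low and WT4 and KO1 are high in Sdf2l1, Creld2, Pdia3 and Xbp1, while Hsp90b1, Canx, Pdia4, Pdia6 and Ddit3 are pale throughout.

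Within the groups the members differed widely in how far their libraries lay apart. The SD of log2 CPM within groups was ranked against genes of a mean level within 2-fold. For 10 of the 30 members it was at or above the 90th percentile, for 6 it was below the 25th, and 14 lay between. Xbp1, Pdia3 and Sdf2l1 each stood at percentile 99.3, with SDs of 0.907, 0.933 and 0.995. Creld2 (96.4), Ppp1r15a (93.6), Herpud1 (92.9), Manf (92.5), Dnajc3 (92.1), Sel1l (90.7) and Dnajb11 (90.5) were the others, and Edem2 (89.5) lay just under the bound. Ddit3 (3.4), Hsp90b1 (8), Pdia4 (15.5), Pdia6 (16.9), Ern1 (17.9) and Canx (22.3) were the least variable for their level.

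**Figure D4:**
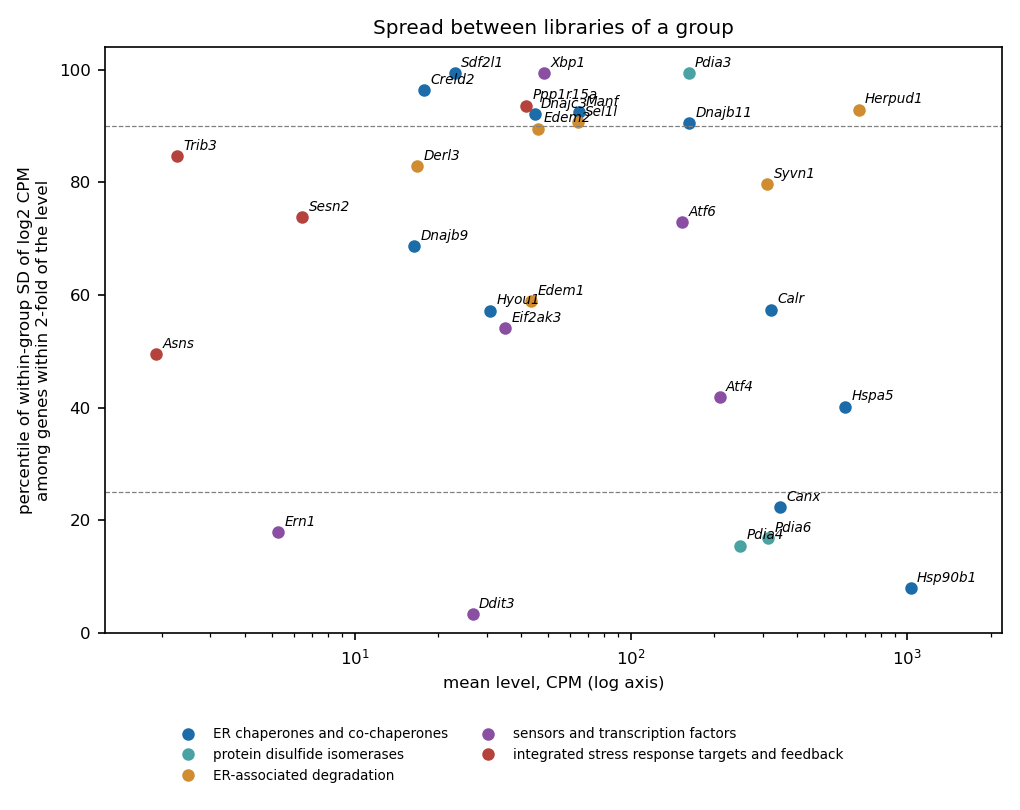
Percentile of the within-group SD of log2 CPM of each tested gene among genes of similar level, against its mean CPM (log axis), coloured by role, with dashed lines at percentiles 90 and 25. Xbp1, Pdia3 and Sdf2l1 are at the top and Ddit3 and Hsp90b1 at the bottom.

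The 10 members with the wide spread were all lowest in WT2, and 8 of them were highest in KO1. Manf was highest in WT4, and Ppp1r15a in KO3. These 10 were picked by their spread in the same libraries, and the shares among other genes of wide spread were not taken. Over all tested members, WT2 was the lowest of 8 libraries in 21 of the 30 members (70%), against 25.3% of all genes tested. KO1 was the highest in 12 members (40%, against 18% of all genes) and KO3 in 8 (26.7%, against 15.9%). Averaged over the 30 members, log2 CPM deviated by -0.70 in WT2, -0.12 in WT3, -0.06 in WT1, -0.07 in KO2, 0.12 in KO4, 0.19 in WT4, 0.26 in KO3 and 0.38 in KO1. WT4, a wild-type library, thus stood with the labelled knockout, and KO2 with the wild type. The same 2 libraries, WT4 and KO1, were at opposite ends for erythroid markers (8734 and 319 CPM). Plasma cell markers summed to 844 CPM in WT4 and 839 CPM in KO1, against 991 CPM in WT2. Irf4 (351, 367 and 515 CPM in WT4, KO1 and WT2) and Slamf7 (363, 301 and 394 CPM) made up most of each sum. The order of the sums therefore mostly follows Irf4 and Slamf7 and does not speak for the other plasma cell markers. Of the other plasma cell markers, Jchain was at 7.21 CPM or less and Tnfrsf17 at 0.33 CPM or less in every library. Ighg2b reached 20.9 CPM in KO1 and Igha 23.2 CPM in KO2. Prdm1 was at 8.80 CPM in WT4, 15.2 CPM in KO1 and 7.69 CPM in WT2. Of the 10 tested plasma cell markers 5 had a higher value in the labelled knockout and 5 a lower one. Sdc1 alone was 89.0 CPM in WT4, 106 CPM in KO1 and 21.2 CPM in WT2. Of the 6 markers of plasmacytoid dendritic cells, 2 had a higher value in the labelled knockout, and their sum ran from 413 CPM in WT2 to 796 CPM in KO1. Irf8, which B-lineage cells also express, made that order, with 105 CPM in WT2, 394 in WT4 and 523 CPM in KO1. The other 5 markers summed to 308, 245 and 273 CPM in these libraries, with WT2 the highest of all 8, and Siglech was at 6.4, 1.85 and 1.98 CPM. Neutrophil markers ran the other way, with 577 CPM in WT2 and 505 in KO2 against 182 in KO1 and 122 CPM in KO3, and 0 of these 12 had a higher value. No marker of these lists was at 0 in all libraries. Removing each library's trend with gene GC content narrowed the range over the libraries in 24 of the 30 members. In the 10 variable members the range on the log2 scale fell by between 1.94% (Pdia3, 2.99 to 2.93) and 16.3% (Sdf2l1, 3.15 to 2.64). In 4 other members it became more than 1.5 times smaller: Derl3 went from 1.59 to 0.995, Sesn2 from 1.60 to 0.937, Atf4 from 0.579 to 0.264 and Canx from 0.480 to 0.310. The part of cell composition and of RNA quality in the order of libraries was not tested.

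The ER stress response element occurred in variable and in even members. Of the 10 members at or above the 90th percentile of spread, 9 had a window and 2 of these held the element, Dnajc3 and Creld2, with within-group SDs of 0.55 and 0.76. Of the 6 members below the 25th percentile, 3 held it, Hsp90b1, Canx and Pdia6, with SDs of 0.08, 0.11 and 0.10. The other 4 genes with the element, Hspa5, Calr, Syvn1 and Derl3, lay between these bounds, with SDs of 0.15, 0.19, 0.28 and 0.45. Pdia3, Xbp1 and Sdf2l1, the most variable members, were among the genes whose window held no match to it. That says only that these letters are not in the windows searched.

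Without WT4, the wild-type library whose levels lay nearest the labelled knockout, 358 genes of 19506 were called higher (1.84%) and 5 lower (0.0256%; edgeR). Of the members, Herpud1 and Edem2 were called higher, both at an adjusted p of 0.0493, and 0 were called lower. Their log2 fold changes were then 1.11 and 1.17. At an unadjusted p under 0.05 there were 15 of 30 members without WT4 (21.9% of all genes), in place of 7 (12.6% of all genes) with every library. There were 4 of 31 without KO1 (6.11% of all genes) and 4 of 30 without KO3 (6.07% of all genes). Without WT2 the members' median log2 fold change was 0.14. Over the 8 fits that each left out 1 library, the adjusted p of Herpud1 and of Edem2 ran from 0.0493 to 0.712.

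With a term for libraries that held Y-linked RNA, and without WT4, 2324 genes were called higher (11.9%) and 788 lower (4.04%). Of the members 13 were then called higher and 0 lower. They were Creld2, Derl3, Dnajb11, Edem2, Eif2ak3, Herpud1, Manf, Pdia3, Ppp1r15a, Sdf2l1, Sel1l, Sesn2 and Xbp1. With the GC trend removed and without WT4, 4.7% of genes were called higher, and Dnajb11, Edem2, Herpud1, Ppp1r15a and Xbp1 were the 5 members among them. With both the GC trend removed and the term, and without WT4, 10.1% were called higher, with 12 members. WT4 was singled out in the 3 combined fits with earlier results of these data known. Leaving out the wild-type library nearest the labelled knockout favours calls between the groups. The counts without WT4 are therefore no separate support for a difference. Edem2 and Herpud1 were called in all 4 fits without WT4, and no fit that kept WT4 called a member.

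The other genes of the pathway were taken from 6 lists, and no gene of any list passed the test. Of 15 other ERAD genes 13 had higher values, with a median log2 fold change of 0.25. They include Vcp, the ATPase that pulls substrates from the membrane, at 338 ± 76.7 against 466 ± 41.5 CPM (log2 fold change 0.46, adjusted p = 0.391), and Erlec1, a lectin of the HRD1 complex, at 8.89 ± 1.001 against 10.8 ± 0.37 CPM (0.28, adjusted p = 0.408; SD, n = 4 each). Neither gene had overlapping groups, as was so on the higher side for 2.62% of all genes. Derl2 of the same list, named here after its value was seen, did not overlap on the lower side (4.17% of all genes). It was at 96.5 ± 8.88 against 88.7 ± 1.57 CPM. Other sensors, proteases and ER stress factors had 6 of 8 values higher and a median of 0.15. Of these, Atf6b, the relative of Atf6, was at 60.4 ± 23.9 against 99.3 ± 18.4 CPM (log2 fold change 0.72), and Map3k5, a kinase downstream of IRE1, was at 19.0 ± 0.92 against 23.0 ± 3.28 CPM (0.28).

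The remaining lists were near 0 in the median. Other ER folding enzymes had 9 of 16 values higher and a median of 0.05, with Prdx4, a peroxiredoxin of oxidative folding, at -0.38 and the reductase Dnajc10 at -0.23. Translocon and secretory pathway genes had 11 of 27 values higher and a median of -0.03, with the translocon subunits Sec61g at -0.47 and Sec61b at -0.36. Genes for eIF2 kinases, eIF2 and eIF2B had 6 of 12 values higher and a median of 0.00, with the eIF2 subunit gene Eif2s3x at -0.34 and the kinase gene Eif2ak2 (PKR) at -0.42. The kinase genes Eif2ak1 (HRI) and Eif2ak4 (GCN2) of the same list were at 0.71 and 0.62, and are named here after their values were seen. Other ATF4 pathway genes had 6 of 18 values higher and a median of -0.04. Psph and Psat1, both enzymes of serine synthesis, were at -0.34 and -0.45. They were the 2 of the 18 genes whose groups did not overlap on the lower side, as did 4.17% of all genes. Phgdh of the same list, named here after its value was seen, was at -0.06 with overlapping groups. All of these adjusted p-values were 0.391 or above, so each difference is a value and not a call.

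**Figure D5:**
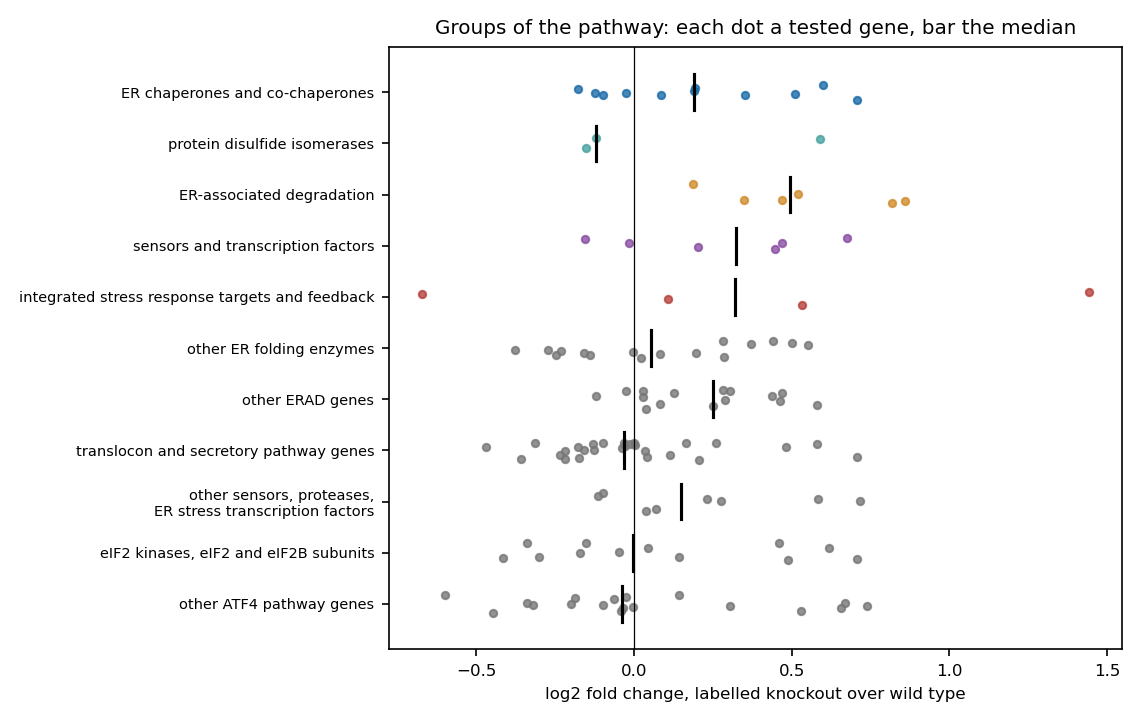
Log2 fold change, labelled knockout over wild type, of each tested gene in the 5 roles of the members (coloured) and in 6 lists of other pathway genes (grey), with the median of each as a bar. The 6 ERAD members and 13 of 15 other ERAD genes lie above 0, and the secretory pathway and ATF4 lists spread on both sides of 0.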

How the data were processed

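The values are raw counts per gene that the authors deposited for 8 libraries. Per the file headers they came from featureCounts 2.0.1 in paired mode with GENCODE M25, with multi-mapping reads counted and no strand option recorded. The submitters' processing notes name STAR 2.7.7a, GATK 4.1.9.0 and the mm10 build, without saying what GATK did. The deposited summed exon length per gene, an annotation of unit other, served only for levels per kb. Per the labels, the RNA came from a Trizol extraction and went into a SMARTER mRNA kit.

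Gene names came from GENCODE M21, in which 55227 of 55487 identifiers were found. Columns of other samples numbered 0. Genes were filtered with filterByExpr, scaled by TMM and tested with edgeR 4.0.16 in R 4.3.3 (glmQLFit, robust, two-sided, genotype as the only term), with Benjamini-Hochberg adjustment over all 18884 genes and a threshold of 0.05. Standard errors were derived from the F value. Deviations used log2 CPM with a prior count of 2. DESeq2 1.42.0 and limma 3.58.1 were alternatives. The fit was tested on simulated data. Library pairs within a group differed beyond sampling noise (chi-square per degree of freedom 29.5 or more).

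Ddit3 has a second row without counts, which was not used. The members and lists were chosen with earlier results of these data known. Values in each library are given for Hspa5, Xbp1, Atf4, Ddit3 and the 3 members of each role with the smallest unadjusted p, and 2 genes are named from each other list by the same measure. The term for Y-linked RNA marks libraries in which Y-linked genes sum to more than 5 CPM. The fit that joins this term with the GC trend and leaves out WT4 was chosen after seeing the data.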

Additional observations from a re-analysis of the deposited data

Results flagged for a closer look

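In 62 groups of 4 libraries (31 genes in each group), 4 held a library whose gap to the nearest other was above the 95% critical value of Dixon's ratio, as a share of the group's range. Chance gives about 1 in 20 groups. Syvn1, the HRD1 ligase gene, stood at 460 CPM in KO3, against 304 to 322 CPM in the other labelled knockout libraries. Ppp1r15a, the GADD34 gene, stood at 113 CPM in KO3, against 38.6 to 50.8 CPM. Trib3 stood at 0.723 CPM in WT2, against 2.59 to 2.80 CPM in the other wild-type libraries. Asns stood at 3.88 CPM in WT1, against 1.76 to 1.87 CPM.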

How the results depend on the processing

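Of 860 log2 fold changes of 43 named genes under 20 alternatives, 791 kept their direction and their side of the threshold, 47 newly passed it and 22 changed direction. With 0 genes and 0 members called in the full edgeR fit, DESeq2 called 6 genes and 0 members. Without WT replicate 4 and with the term for Y-linked RNA, 3112 genes and 13 members were called. With the GC trend removed and without WT replicate 4 the counts were 1025 and 5, and with the term added to these 3317 and 12. Leaving out each library in turn gave 0 to 363 genes and 0 to 2 members, both at their highest without WT replicate 4. The replicate block called 0 genes and 0 members, with 12 members at an unadjusted p under 0.05 in place of 7 (16.2% of all genes in place of 12.6%). Same-numbered libraries had correlations of deviations of 0.007, 0.636, 0.245 and -0.033. KO2 correlated best with WT2, its same-numbered library. KO1 correlated best with WT4 (0.645), KO3 with WT1 (0.268) and KO4 with WT2 (0.214). The labels do not say whether the numbers pair the libraries, and these correlations cannot settle it. Hyou1 was at -0.002 with upper quartile factors, -0.035 with the GC trend removed and without WT replicate 4, and -0.015 with the term as well. Calr was at 0.016 without a count filter and 0.023 with the term. Ddit3 was at 0.023 without a count filter, 0.003 with the term, 0.013 with the GC trend removed, and 0.004 with both and without WT replicate 4. Trib3 was at -0.106 with the GC trend removed and -0.072 when WT replicate 4 was also left out. Leaving out 1 library at a time, Il2ra ran from -0.268 to 0.007, Hyou1 from -0.051 to 0.229, Dnajc3 from -0.084 to 0.568, Calr from -0.098 to 0.063, Ddit3 from -0.058 to 0.031 and Trib3 from -0.156 to 0.25. The cause of these changes was not tested. Upper quartile factors moved the median of all genes to -0.09, and 20 of 30 members then had higher values. Chac1 held at most 26 counts per library, too few for a test under the count filter.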
